A study of Mus musculus with 8 samples.

Results

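The genes described are the G1 cyclins and the kinases they activate: Ccnd1, Ccnd2, Ccnd3, Ccne1, Ccne2, Cdk2, Cdk4 and Cdk6, with Cdc25a, the phosphatase that releases CDK2 from its inhibitory phosphate. They were chosen by gene symbol, 9 of the 22065 named genes of the count table, and all 9 were among the 16444 genes tested. The question was whether HSCs (haematopoietic stem cells) that lost Mitol, the gene of a mitochondrial ubiquitin ligase also called Marchf5, carried the transcripts of cells leaving quiescence. Mice of both groups were C57BL/6, 8 to 10 weeks old, homozygous for a floxed Mitol allele (Mitol Flox/Flox) and injected with Poly:IC, a double-stranded RNA mimic. Mitol KO mice also carried MX1-cre, and their Control littermates did not. The interferon-inducible Mx1 promoter drives this Cre, so recombination reaches other blood cells and interferon-responsive tissues, not HSCs alone. From bone marrow, 100 cells negative for Lineage markers and CD48 and positive for CD150 and EPCR were sorted for each library, 1 week after Poly:IC. The study's definition of long-term HSCs also requires CD117 (c-Kit), the product of Kit, and its methods describe c-Kit enrichment before such sorts. There were 4 libraries a group, and nothing in the sources used here says that each came from its own mouse, so p-values measure the spread between these libraries.

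Commitment to a new cell cycle is made in G1. Growth signals raise the D cyclins (cyclin D1, D2 and D3), which bind CDK4 and CDK6 and begin the phosphorylation of the retinoblastoma protein RB. Freed E2F factors then raise the E cyclins (cyclin E1 and E2), which bind CDK2 and carry the cell into S phase, with CDC25A removing the last brake on CDK2. HSCs are mostly quiescent in the adult marrow, and the level of CDK6 is known to set how readily they leave that state.

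Library totals ran from 7214940 to 12398100 counts in named genes. The 9 genes together took 0.236% to 0.306% of these counts in the Mitol KO libraries and 0.206% to 0.212% in the Control libraries. Cdk6 was the largest part of this in Mitol KO, at a mean of 14175 normalized counts against 5268 in Control. Ccnd2 went the other way, at 4800 against 7420, so the share does not stand for a rise of all 9 genes. Marchf5 itself was read at 276, 232, 308 and 281 normalized counts in Mitol KO libraries 1 to 4 and at 299, 312, 333 and 262 in Control libraries 1 to 4 (log2 fold change -0.15, SE 0.13, edgeR adjusted p = 0.498). The sources used here do not say which part of the gene Cre removes, and counts over a whole gene include what remains, so this level is no check of the genotype labels. Mitol KO library 3 stood apart by red cell transcripts: Slc4a1 was at 1387 normalized counts there and at 0 to 13.2 in the other 7 libraries, and Hbb-bs was at 1048 there and at 0 to 19.7 elsewhere. Hbb-bt, the 1 red cell gene that passed the test, was higher in every Mitol KO library. It was at 815, 801, 1432 and 1408 in Mitol KO libraries 1 to 4 and at 144 to 595 in Control (log2 fold change 1.29, edgeR adjusted p = 0.0442). The 12 HSC markers were all present, with summed levels of 29148 to 33690 in Mitol KO and 41887 to 48916 in Control libraries, and Kit and Hlf were among those that fell. Cd48, which the gate selects against, rose (22.2 to 63.4 normalized counts in Mitol KO against 4.49 to 21.7, log2 fold change 1.72, edgeR adjusted p = 0.0450). Summed neutrophil markers were lower in Mitol KO, at 16.9 to 36.6 normalized counts against 50.1 to 88.9. Of the 7 neutrophil genes in the table, only 1 had enough counts to be tested, and it did not pass. Summed macrophage markers, at 1825 to 1969 against 1774 to 2052, overlapped. B lineage sums (136 to 150 against 145 to 204), T cell sums (189 to 259 against 172 to 200) and mast cell and basophil sums (7.32 to 13.8 against 11.3 to 21.1) overlapped too, and the defining Cd3e, Cd8a, Pax5 and Ms4a1 were not in the table. In bulk RNA, fewer cells that use a gene and less RNA for it in each cell cannot be told apart.

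Of the 9 genes, Ccne1, Cdk6 and Cdk4 rose and Ccnd2 fell in Mitol KO HSCs at an adjusted p under 0.05 (edgeR quasi-likelihood test, Benjamini-Hochberg adjustment over all tested genes). Over all tested genes, 4.68% rose and 3.75% fell by the same rule. The other 5 did not pass: Ccnd1, Ccnd3, Ccne2, Cdk2 and Cdc25a. In 3 of the 9 (Ccnd2, Ccne1 and Cdk6) the 4 Mitol KO libraries lay wholly outside the range of the Control libraries, against 15.4% of all tested genes. The log2 fold change was above 0 for 7 of the 9, with a median of 0.51, beside -0.020 over all tested genes. Normalized counts below are counts divided by the size factor of the library. Their levels compare libraries, not genes of different length.

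**Figure D1:**
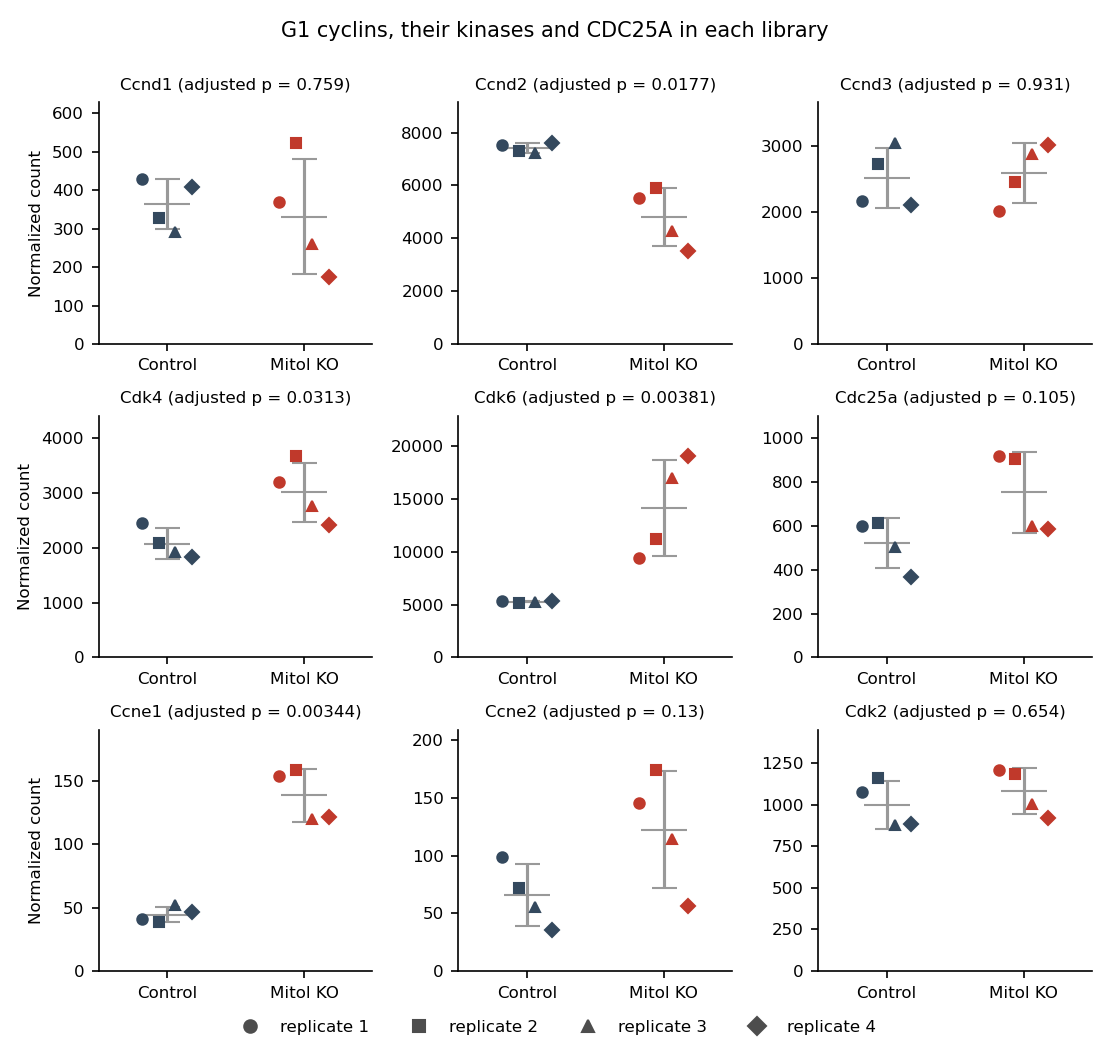
Normalized counts (y axes, linear from 0) of each of the 9 genes in the 4 Control and 4 Mitol KO libraries. Points are libraries, with a symbol for each replicate number, grey bars are the mean and SD, and the edgeR adjusted p stands above each panel. The Cdk6 points of Control lie between 5177 and 5302, below every Mitol KO point, and the Ccnd2 points of Mitol KO lie between 3507 and 5899, below every Control point.

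The regulatory sequences just before the transcription start are shown for the 3 genes that rose, and for Cdc25a and Cdk2, whose windows held an E2F word. Each is the 250 bases before the start in RefSeq on GRCm38.p6, written 5′ to 3′ along the gene. Capitals mark either an E2F word (TTTCCCGC, TTTGGCGC, TTTGCCGC or TTTCGCGC, on either strand) or the E-box CACGTG, the core letters that MYC and related factors bind.
Ccne1, chr7:38107491-38107740, minus strand: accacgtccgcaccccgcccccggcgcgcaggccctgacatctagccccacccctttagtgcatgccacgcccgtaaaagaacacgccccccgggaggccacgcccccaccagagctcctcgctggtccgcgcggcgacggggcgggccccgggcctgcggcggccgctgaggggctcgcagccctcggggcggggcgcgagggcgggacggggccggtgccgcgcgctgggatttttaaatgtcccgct
Cdk4, chr10:127063285-127063534, plus strand: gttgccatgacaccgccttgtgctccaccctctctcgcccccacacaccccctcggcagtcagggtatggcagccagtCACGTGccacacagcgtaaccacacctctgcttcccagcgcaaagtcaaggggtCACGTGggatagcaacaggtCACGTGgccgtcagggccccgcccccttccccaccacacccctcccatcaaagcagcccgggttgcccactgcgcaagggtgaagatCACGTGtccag
Cdk6, chr5:3343643-3343892, plus strand: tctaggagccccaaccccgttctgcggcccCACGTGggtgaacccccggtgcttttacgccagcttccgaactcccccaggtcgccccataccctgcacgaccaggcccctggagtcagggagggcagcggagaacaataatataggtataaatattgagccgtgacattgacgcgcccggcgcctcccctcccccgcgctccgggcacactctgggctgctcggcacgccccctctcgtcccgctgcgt
Cdc25a, chr9:109875329-109875578, plus strand: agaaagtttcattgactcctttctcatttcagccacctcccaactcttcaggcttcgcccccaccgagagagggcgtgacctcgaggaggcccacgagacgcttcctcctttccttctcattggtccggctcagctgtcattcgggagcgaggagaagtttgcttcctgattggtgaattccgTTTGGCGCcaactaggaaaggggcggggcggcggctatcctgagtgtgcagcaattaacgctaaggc
Cdk2, chr10:128705052-128705301, minus strand: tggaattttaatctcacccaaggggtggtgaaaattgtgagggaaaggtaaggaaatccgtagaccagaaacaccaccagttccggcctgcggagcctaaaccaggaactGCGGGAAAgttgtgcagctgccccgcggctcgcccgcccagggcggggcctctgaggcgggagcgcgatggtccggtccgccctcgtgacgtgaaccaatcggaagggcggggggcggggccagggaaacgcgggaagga
The Cdk4 window held 4 copies of CACGTG, whose first bases lay 172, 118, 98 and 11 bases before the start. The Cdk6 window held 1 copy, 220 bases before the start. Among 32851 such windows of the mouse genome, 6.02% held at least 1 CACGTG, and 7 windows of 5 genes held as many as Cdk4. This word was added to the search after these windows were seen. An E2F word stood in the windows of Cdc25a (TTTGGCGC, 67 bases before the start) and Cdk2 (TTTCCCGC, read on the other strand as GCGGGAAA, 140 bases before the start), and 1.86% of all windows held one. The words TTTGAA and TTCGAA of the CHR, an element of mitotic gene promoters, found in 17.1% of windows on either strand, stood in no window of the members. Ccne1 held none of the words searched, and its window was 76.0% G and C. Both Ccnd3 windows also held none. Windows were matched for 6 of the 9 genes, all but Ccnd1, Ccnd2 and Ccne2. A match describes letters and not a bound site, and the absence of these letters says nothing of other forms of a site.

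Among the D cyclins, the partners of CDK4 and CDK6, only Ccnd2 passed the test. Ccnd2 (chr6:127102125-127129156, GRCm39, minus strand) was read at 5516, 5899, 4279 and 3507 normalized counts in Mitol KO libraries 1 to 4 and at 7538, 7316, 7210 and 7615 in Control libraries 1 to 4. The groups did not overlap, and Mitol KO libraries 3 and 4 were the lowest. The mean was 4800 ± 1105 (SD, n = 4) against 7420 ± 189 (SD, n = 4), a 0.638-fold level (log2 fold change -0.65, SE 0.13, edgeR adjusted p = 0.0177). The exact 2-sided permutation test over the 70 arrangements gave p = 0.0286, the smallest it can give with 4 libraries a group. The call was lost without Mitol KO library 3, the library that stood apart by red cell transcripts (log2 fold change -0.58, edgeR adjusted p = 0.0608), and without Control library 2 (-0.65, edgeR adjusted p = 0.0531).

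Ccnd3 (chr17:47815767-47910624, plus strand) was read at 2011, 2449, 2877 and 3012 normalized counts in Mitol KO and at 2169, 2718, 3044 and 2105 in Control. The ranges lay almost on top of each other (log2 fold change 0.027, SE 0.15, edgeR adjusted p = 0.931). Ccnd1 (chr7:144483668-144493662, minus strand), the D cyclin of many epithelial tissues, was read at 369, 524, 259 and 175 normalized counts in Mitol KO and at 430, 328, 290 and 408 in Control. The Mitol KO libraries spanned the Control range on both sides, with 1 above it and 2 below it. Its log2 fold change was -0.15 (SE 0.27, edgeR adjusted p = 0.759), and it ranged from -0.45 to 0.076 as single libraries were left out. Within Mitol KO, libraries 3 and 4 were highest for Ccnd3 and lowest for Ccnd1 and Ccnd2.

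Both kinases of the D cyclins rose, Cdk6 by more than Cdk4. Cdk6 (chr5:3391485-3581008, plus strand) was read at 9416, 11244, 16972 and 19069 normalized counts in Mitol KO libraries 1 to 4, and at 5302, 5177, 5291 and 5301 in Control libraries 1 to 4. Even the lowest Mitol KO library was far above the Control libraries, which differed from each other by little. The mean was 14175 ± 4583 (SD, n = 4) against 5268 ± 60.8 (SD, n = 4), a 2.66-fold level (log2 fold change 1.41, SE 0.19, edgeR adjusted p = 0.00381, exact permutation p = 0.0286). Every fit that left out 1 library kept the call, with log2 fold changes of 1.25 to 1.57. Without Mitol KO library 3 the value was 1.32 (edgeR adjusted p = 0.0133).

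The spread of Cdk6 inside Mitol KO was wide, a coefficient of variation of 32.3% against 1.15% in Control. Libraries 3 and 4, the highest, were also highest for Klf1, an erythroid factor, at 92.5 and 103 normalized counts (10.2 and 21.8 in libraries 1 and 2, 1.32 to 19.8 in Control). The red cell list as a whole, 9 of its 10 genes being in the table, summed to 1065 to 5010 normalized counts in Mitol KO and 464 to 909 in Control. The part of these transcripts in the Cdk6 level was not tested. The fit without library 3 keeps those of the other Mitol KO libraries, among them the Klf1 of library 4. As a description over the 8 libraries, with each group mean removed, the genes whose log2 level was most like that of Cdk6 were Itga2b (Pearson r = 0.993), Unc13d (0.993) and Gm37728 (0.992), among 10223 genes with a mean of at least 100 normalized counts. Such values rest on 8 libraries and were not rare: 172 genes were above 0.9 for Cdk6. The same count was 226 for Ccnd2, 240 for Cdk4 and 37 for Ccne1, and the reason for the difference was not tested.

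Cdk4 (chr10:126895180-126903789, plus strand) was read at 3194, 3664, 2765 and 2419 normalized counts in Mitol KO libraries 1 to 4 and at 2457, 2088, 1921 and 1821 in Control libraries 1 to 4. The groups overlapped by a single pair, Mitol KO library 4 standing just below Control library 1. The mean was 3011 ± 539 (SD, n = 4) against 2072 ± 279 (SD, n = 4), a 1.44-fold level (log2 fold change 0.52, SE 0.13, edgeR adjusted p = 0.0313, exact permutation p = 0.0571). This call was not stable to the loss of a library: it was kept in 2 of the 8 fits, those without Mitol KO library 4 and without Control library 1. In the other 6 fits, without Mitol KO libraries 1, 2 or 3 or Control libraries 2, 3 or 4, the edgeR adjusted p ran from 0.0566 to 0.0886 and the log2 fold change from 0.42 to 0.58. The genes most like Cdk4 by the same measure were Mthfd2, a mitochondrial folate enzyme (r = 0.992), Uqcr11 (0.984) and Ubr7 (0.983). For Ccnd2 they were Nedd4 (0.995), Ccdc69 (0.987) and Tmed10 (0.985).

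**Figure D2:**
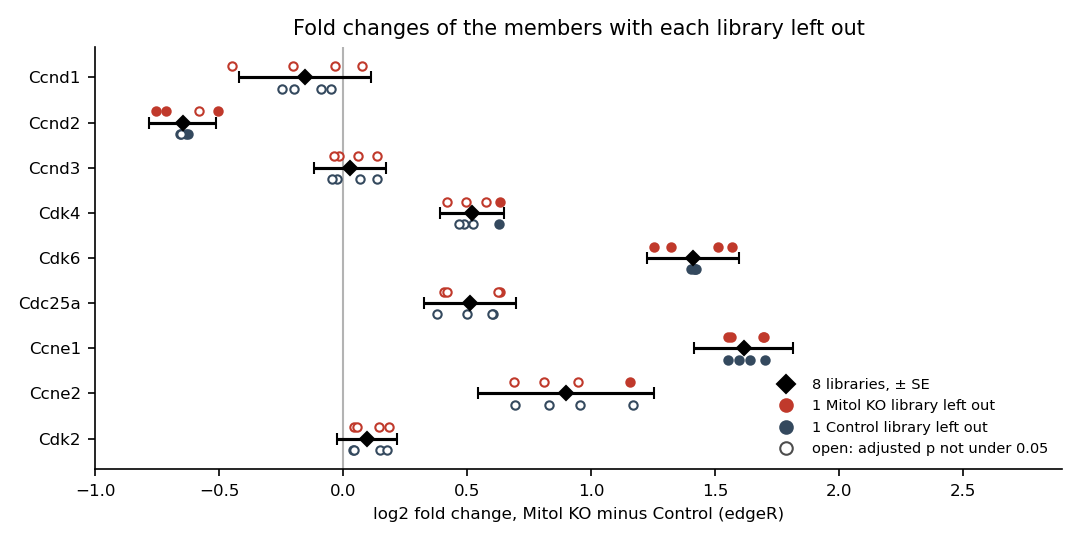
Log2 fold changes (x axis, Mitol KO minus Control, edgeR) of the 9 genes. Black diamonds with bars are the fit of all 8 libraries with its SE, red circles are fits without 1 Mitol KO library, dark circles are fits without 1 Control library, and open circles missed the adjusted p threshold of 0.05. All 8 circles of Ccne1 and of Cdk6 are filled, whereas 2 of 8 are filled for Cdk4.

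At the next step, Ccne1 rose and Ccne2 did not pass the test. Ccne1 (chr7:37797404-37808264, minus strand) was read at 154, 159, 120 and 122 normalized counts in Mitol KO libraries 1 to 4 and at 40.9, 38.3, 51.8 and 46.7 in Control libraries 1 to 4. Every Mitol KO library was above every Control library by a wide margin. The mean was 139 ± 20.8 (SD, n = 4) against 44.4 ± 6.05 (SD, n = 4), a 3.07-fold level (log2 fold change 1.62, SE 0.20, edgeR adjusted p = 0.00344, exact permutation p = 0.0286), the largest change among the 9 genes. It rested on 31 to 197 reads a library. All 8 fits without a library kept the call, with log2 fold changes of 1.55 to 1.70, and the value without Mitol KO library 3 was 1.70 (edgeR adjusted p = 0.0133). Stk3 (r = 0.975), Ftsj1 (0.962) and Gnpat (0.960) were the genes most like Ccne1 after removal of the group means.

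Ccne2 (chr4:11190303-11204947, plus strand), which encodes the other E cyclin, was read at 146, 175, 114 and 56.1 normalized counts in Mitol KO and at 98.9, 72.4, 55.6 and 35.9 in Control. Here 3 Mitol KO libraries were above all Control libraries, and the fourth fell among them. The log2 fold change was 0.90 (SE 0.35, edgeR adjusted p = 0.130, exact permutation p = 0.114). Without Mitol KO library 4 it was 1.16 and passed (edgeR adjusted p = 0.0233).

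Cdk2 (chr10:128533796-128540963, minus strand), the kinase of the E cyclins, was read at 1212, 1185, 1006 and 924 normalized counts in Mitol KO and at 1080, 1160, 876 and 882 in Control. The groups overlapped over most of their range (log2 fold change 0.097, SE 0.12, edgeR adjusted p = 0.654). Cdc25a (chr9:109704583-109723540, plus strand) was read at 917, 904, 600 and 587 normalized counts in Mitol KO and at 601, 612, 504 and 368 in Control. Libraries 1 and 2 of Mitol KO were above the Control range, and libraries 3 and 4 were inside it. Its log2 fold change was 0.51 (SE 0.19, edgeR adjusted p = 0.105, exact permutation p = 0.171), and without Mitol KO library 4 it was 0.63 and passed (edgeR adjusted p = 0.0381). Mitol KO libraries 3 and 4, highest for Cdk6, were the lowest of their group for Cdk4, Ccne2, Cdk2 and Cdc25a.

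The balance between genes was compared as a log2 ratio of normalized counts within each library, for 4 pairs that serve the same step and for Cdk2 against Cdk6, kinases of successive steps. The ratio of Cdk4 to Cdk6 was 0.339, 0.326, 0.163 and 0.127 in Mitol KO libraries 1 to 4 and 0.464, 0.403, 0.363 and 0.344 in Control libraries 1 to 4. All Mitol KO libraries were below the Control libraries. The difference in log2 ratio was -0.84 (exact permutation p = 0.0286, adjusted over the 5 ratios p = 0.0714), so it did not pass after adjustment. The ratio of Cdk2 to Cdk6 also lay lower in each Mitol KO library (0.0485 to 0.129 against 0.166 to 0.224, difference in log2 ratio -1.25, exact permutation p = 0.0286, adjusted p = 0.0714). The ratios of Ccnd1 to Ccnd2, Ccnd3 to Ccnd2 and Ccne1 to Ccne2 overlapped between the groups, with differences in log2 ratio of 0.43, 0.70 and 0.75 and exact permutation p values of 0.114, 0.143 and 0.229.

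To set the genes beside each other, normalized counts were divided by the length of the merged exons in kilobases (GENCODE, GRCm39). In Control HSCs the order was Ccnd2 (789 ± 20.1 normalized counts per kilobase, SD, n = 4), Cdk4 (602 ± 81.2), Cdk6 (365 ± 4.22), Ccnd3 (271 ± 48.7), Cdk2 (158 ± 22.6), Ccnd1 (76.1 ± 13.8), Cdc25a (60.0, from 42.4 to 70.4), Ccne1 (12.3 ± 1.67) and Ccne2 (11.7 ± 4.75). The libraries of Ccnd1 and Cdc25a overlapped on this scale, as did those of Ccne1 and Ccne2. In Mitol KO HSCs the order was led by Cdk6 (983 ± 318 normalized counts per kilobase, SD, n = 4), Cdk4 (875 ± 157) and Ccnd2 (510 ± 117), with the libraries of Cdk6 and Cdk4 overlapping. The E cyclins stayed last, Ccne1 at 38.2 ± 5.73 and Ccne2 at 21.8 ± 9.03 normalized counts per kilobase, and their libraries did not overlap there. With the longest transcript as the length, Cdk4 stood before Cdk6 in Mitol KO, Ccnd3 before Cdk6 in Control, and Cdc25a before Ccnd1 in Control.

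Summed per kilobase, the 3 D cyclins came to 859 ± 112 (SD, n = 4) in Mitol KO and 1136 ± 15.4 (SD, n = 4) in Control, while Cdk4 and Cdk6 came to 1858 ± 200 and 967 ± 81.3. The kinase sum divided by the cyclin sum was therefore 1.80, 1.84, 2.42 and 2.76 in Mitol KO libraries 1 to 4 and 0.961, 0.847, 0.800 and 0.799 in Control libraries 1 to 4. On this scale the kinases exceeded the D cyclins in each Mitol KO library and fell short of them in each Control library. With the longest transcript as the length, the mean ratio was 1.77 ± 0.219 (SD, n = 4) against 0.756 ± 0.0837. These sums follow from the values of the single genes and were not tested. Ccnd2 made up 58.8% ± 7.10 (SD, n = 4) of the D cyclin level per kilobase in Mitol KO and 69.4% ± 2.69 in Control. Cdk6 made up 52.1% ± 12.1 of the Cdk4 and Cdk6 level in Mitol KO and 37.9% ± 3.08 in Control, from 41.3% and 42.3% in Mitol KO libraries 1 and 2 to 59.4% and 65.3% in libraries 3 and 4.

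**Figure D3:**
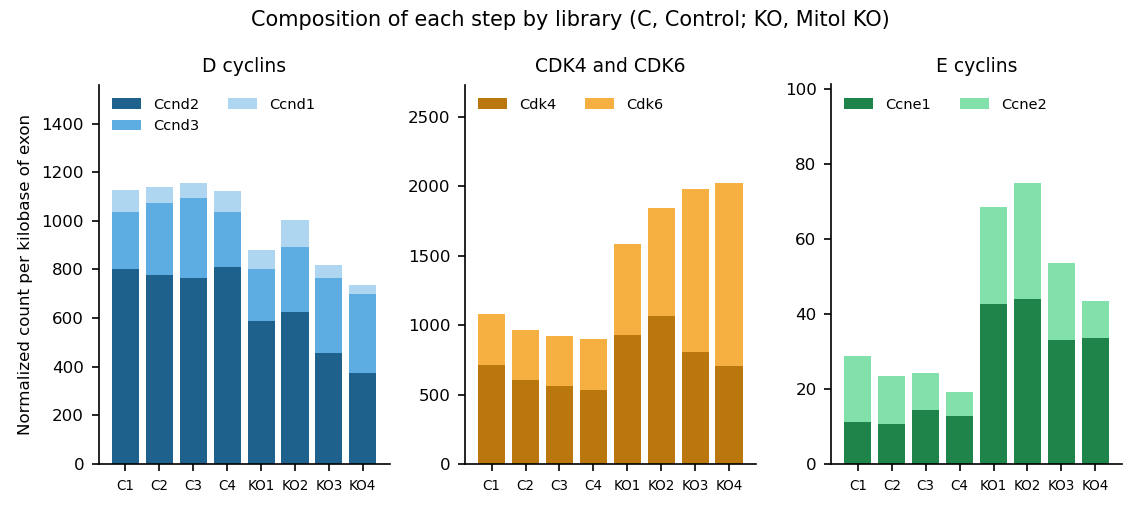
Normalized counts per kilobase of merged exon (y axes, linear from 0) in each Control (C) and Mitol KO (KO) library, stacked by gene for the D cyclins, for CDK4 and CDK6, and for the E cyclins. The D cyclin bars come to 735 to 1001 in Mitol KO and 1122 to 1156 in Control, and the kinase bars to 1581 to 2025 and 897 to 1082.

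Each gene shares its locus with others. Genes on the opposite strand overlap Ccnd1 (LTO1), Ccnd2 (9330179D12Rik), Ccnd3 (Bysl), Ccne1 (1600014C10Rik), Ccne2 (Ints8), Cdk2 (Pmel), Cdk4 (Marchf9 and Tspan31) and Cdk6 (Gm17590 and Gm42435). Mir7089 overlaps Cdc25a on the same strand. In no library was 9330179D12Rik above 5.29 normalized counts or Mir7089 above 3.13, and neither had enough counts to be tested. Overlapping genes without deposited counts, among them some at Ccnd2, Ccnd3, Cdk2 and Cdk6, are not named. The library kit does not mark strand, so reads of both strands cannot be told apart where genes overlap. Of these neighbours, 1 of the genes annotated antisense to Cdk6 passed the test. Gm42435 was at 170 ± 82.8 (SD, n = 4) normalized counts in Mitol KO and 70.5 ± 15.2 in Control (log2 fold change 1.24, edgeR adjusted p = 0.0442), while Gm17590, at 184 ± 85.4 and 93.7 ± 11.4 (0.95, edgeR adjusted p = 0.0620), did not pass. The groups overlapped for each, and both were far below Cdk6 in normalized counts. The neighbour at Ccne1 had a log2 fold change of 0.094 (edgeR adjusted p = 0.743).

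The genes around the 9 were read from lists of the G1/S network, 131 genes of which 124 were tested. Of these, 31 rose and 4 fell, against 4.68% and 3.75% of all tested genes.

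Of 9 inputs to the D cyclins, none rose and 2 fell. Kit, the stem cell factor receptor and an HSC marker of the list above, had a log2 fold change of -0.75 (SE 0.12, edgeR adjusted p = 0.00705). Myc, a driver of Ccnd2 and Cdk4 transcription, had a log2 fold change of -0.22 (edgeR adjusted p = 0.367). Of the 5 CDK inhibitors tested, out of 7 listed, 1 rose and 1 fell. Cdkn1a, which encodes p21, was at 323, 337, 429 and 385 normalized counts in Mitol KO libraries 1 to 4 and at 113, 182, 43.3 and 33.2 in Control libraries 1 to 4. The groups did not overlap, at a log2 fold change of 1.99 (SE 0.41, edgeR adjusted p = 0.0170). Cdkn1c, which encodes p57, the inhibitor most tied to HSC quiescence, was at 67.9 ± 16.1 (SD, n = 4) normalized counts against 127 ± 22.2 (log2 fold change -0.93, SE 0.22, edgeR adjusted p = 0.0265). The other 3 did not pass: Cdkn1b, encoding p27, at 0.12, Cdkn2c at 0.77 and Cdkn2d at 0.35 on the log2 scale.

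The list of CDK phosphorylation control held 9 genes, of which 2 rose, both phosphatases of the family of Cdc25a: Cdc25b (log2 fold change 1.05, edgeR adjusted p = 0.0268) and Cdc25c (1.65, edgeR adjusted p = 0.0455). They act mainly at mitotic entry. Of 19 genes of the RB, E2F and DREAM list, 5 rose and 1 fell. The 3 with the lowest p among those that rose were E2f7 (log2 fold change 1.33, edgeR adjusted p = 0.00634), E2f2 (1.70, edgeR adjusted p = 0.00844) and E2f8 (1.41, edgeR adjusted p = 0.0183). E2f2 is an activator, while E2f7 and E2f8 are repressors that E2F itself induces. Rbl2, which encodes the RB relative p130 of quiescent cells, fell (-0.35, SE 0.090, edgeR adjusted p = 0.0356), and Rbl1, which encodes p107 of cycling cells, rose (0.57, edgeR adjusted p = 0.0416). Neither call was stable: Rbl2 was kept in 2 of the 8 fits without a library, those without Mitol KO library 4 and without Control library 1, and it missed the threshold with no filter on low counts (edgeR adjusted p = 0.0573), while Rbl1 was kept in 1 fit, that without Mitol KO library 4, and missed it with limma-voom (adjusted p = 0.0537). Rb1 (0.38, edgeR adjusted p = 0.0532) and E2f1 (0.54, edgeR adjusted p = 0.210) did not pass.

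Of 16 genes tested for turnover of G1 cyclins and CDC25A, 1 (Fbxw7) passed, which encodes the ubiquitin ligase subunit that marks cyclin E (log2 fold change 0.34, edgeR adjusted p = 0.0496), beside 4.68% of all tested genes. This call was kept in 1 of the 8 fits without a library, that without Mitol KO library 4, and was lost with limma-voom (adjusted p = 0.0522), without a filter on low counts (edgeR adjusted p = 0.0565) and with a replicate block (edgeR adjusted p = 0.0650). Skp2, which marks p27, was at 0.25 (edgeR adjusted p = 0.341). Of 24 G1/S target genes tested, 7 rose and none fell, and all 24 log2 fold changes were above 0, with a median of 0.72. By p-value the first 3 were Rrm2 and Rrm1, the subunits of ribonucleotide reductase (log2 fold change 2.18 and 0.94, edgeR adjusted p = 0.00344 and 0.0207), and Mcm4 of the replicative helicase (0.83, edgeR adjusted p = 0.0339).

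All 5 genes tested of the list of S-phase and mitotic cyclins with CDK1 rose: Ccna2 (log2 fold change 1.90, edgeR adjusted p = 0.0119), Ccnf (1.03, edgeR adjusted p = 0.0154), Cdk1 (1.08, edgeR adjusted p = 0.0236), Ccnb2 (1.55, edgeR adjusted p = 0.0270) and Ccnb1 (1.57, edgeR adjusted p = 0.0392). All 10 proliferation markers rose, with a median log2 fold change of 1.53. Mki67, which encodes Ki67, was at 3171 ± 827 (SD, n = 4) normalized counts against 1480 ± 500, and its groups overlapped. Cd48, of the gate, and the HSC markers that fell moved with these lists, and their part in the counts was not tested. Of the 27 other cyclins and CDKs tested, which serve transcription and other tasks, none passed (edgeR). Over all tested genes, 4.68% rose and 3.75% fell. An unadjusted edgeR p under 0.05 was found for 4336 of all 16444 tested genes and for 7 of these 27, which is a similar share. Their median log2 fold change was -0.035, beside -0.020 over all tested genes. DESeq2 called 3 of them and limma-voom 0. The difference between that list and the 9 genes was not tested. Of the list genes named as having passed, Kit, Cdkn1a, E2f2, E2f7, Rrm2 and Ccna2 were kept in all 8 fits without a library, Ccnf in 7, E2f8 in 6, Mki67 in 5, Cdc25b, Cdkn1c, Rrm1 and Cdk1 in 4, Mcm4 and Ccnb2 in 3, and Cdc25c and Ccnb1 in 2. The total of 35 called list genes depended on single libraries: it was 11 without Control library 2, 15 without Mitol KO library 2, 16 without Control library 4, 17 without Mitol KO library 1, 22 without Mitol KO library 3 and 60 without Mitol KO library 4.

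**Figure D4:**
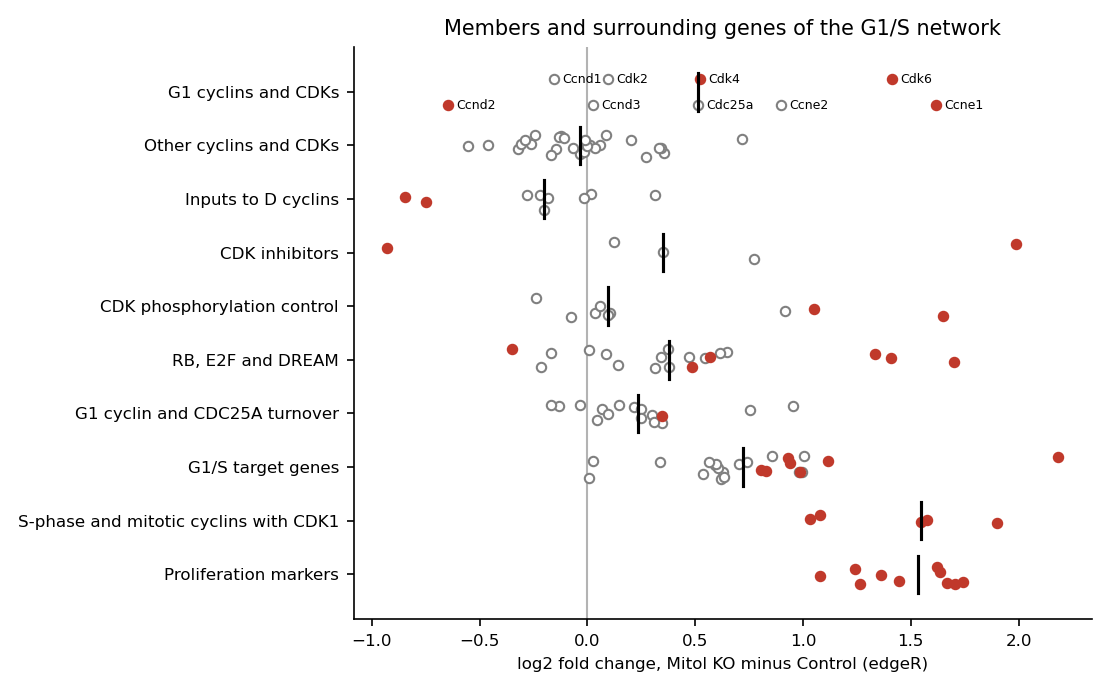
Log2 fold changes (x axis, Mitol KO minus Control, edgeR) of the 9 G1 cyclins and CDKs (top line, named) and of the tested genes of 9 lists around them. Each circle is a gene, filled red at an adjusted p under 0.05 and open otherwise, and black bars are medians. The medians run from -0.20 for the inputs to D cyclins to 1.55 for the S-phase and mitotic cyclins with CDK1.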

How the data were processed

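Bulk RNA was sequenced from 4 Mitol KO and 4 Control libraries, with 100 sorted HSCs in each. According to the study's methods and the submitters' processing notes, the authors aligned single-end reads to mm39 with STAR, merged alignments with SAMtools and counted reads with Subread, and the deposited values are raw counts per gene. The annotation and strand setting are not given in the sources used here, and the library kit does not mark strand. The deposited table held 23094 genes or unnamed entries, none with fewer than 11 counts in total. The 1029 without a symbol (0.335% to 0.467% of counts) were left out. Library totals ran from 7214940 to 12398100 counts.

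Counts were tested with edgeR (4.0.16, R 4.3.3), glmQLFit and glmQLFTest, with TMM normalization, filterByExpr defaults, group as the sole term and Benjamini-Hochberg adjustment over 16444 genes, at 0.05. Printed levels are counts divided by DESeq2 (1.42.0) size factors. Ratios used a pseudocount of 1 and exact 2-sided permutation tests. Lengths and positions came from GENCODE on GRCm39, promoters from RefSeq on GRCm38.p6. Alternatives were DESeq2, limma-voom (3.58.1), DESeq2 size factors in edgeR, no filter on low counts, a replicate block and leaving out each library. Scripts were tested on simulated counts. Protein sequences were not analysed here, and 1 gene that the naming rule covers is not reported here.

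Named genes were the 9 members, Marchf5, in each list the 3 of lowest p in each direction among those that passed, a fixed set of regulators, the 3 genes most like each member that passed, and genes at the ends of a marker list. Ccnb1, Ccnb2, Cdkn2d, Pf4, Hbb-bt and the genes overlapping a member were named after their values were seen. The members and lists were chosen with earlier results of these data known.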

Additional observations from a re-analysis of the deposited data

Results flagged for a closer look

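Of 30 groups of 4 libraries examined (the normalized counts of the 9 members and of Marchf5, and the 5 ratios, in each group), 2 held a library whose gap to its nearest neighbour was most of the group's range. Chance alone marks about 1 group in 20.

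Cdk6 in Control library 2 was at 5177 normalized counts, below the other 3 Control libraries, which lay between 5291 and 5302. The gap is small in size: the SD of the 4 libraries was 60.8 normalized counts, under the 74.6 that counting error alone gives at this depth. Without Control library 2 the Cdk6 log2 fold change was 1.40 (edgeR adjusted p = 0.0194).

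The ratio of Ccne1 to Ccne2 in Mitol KO library 4 was 2.15, whereas it lay between 0.911 and 1.06 in the other 3 Mitol KO libraries. Ccne2 was lowest in that library, at 56.1 normalized counts, while Ccne1 was at 122. Without it the difference in log2 ratio between the groups was 0.48 in place of 0.75.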

How the results depend on the processing

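Over 117 combinations of a member and an alternative, the member's call and direction were the same in 105, a call was lost in 8 and gained in 4, and no called direction turned. The 4 called members were each also called with DESeq2, limma-voom, DESeq2 size factors in edgeR and no filter on low counts, and leaving out 1 library gave 2 to 6 members. The count over all genes was 1386, 2315 with DESeq2 and 2585 at an adjusted p under 0.10, and leaving out 1 library gave 359 to 2501. The 35 called list genes became 53 with DESeq2, and 11 to 60 as single libraries were left out. Leaving out 1 library moved the ratio differences between 0.28 and 0.55 for Ccnd1 to Ccnd2, 0.48 and 0.89 for Ccnd3 to Ccnd2, 0.48 and 1.03 for Ccne1 to Ccne2, -1.05 and -0.58 for Cdk4 to Cdk6, and -1.49 and -1.02 for Cdk2 to Cdk6. The causes were not tested. Over all tested genes, the replicate numbers did not pair the libraries. Same-numbered libraries had correlations of deviations of 0.080, -0.070, 0.053 and 0.067, and replicates 1 and 3 alone matched their own number best. Whether the numbers pair the libraries for the members was not tested. A replicate block took the SE from 0.35 to 0.22 for Ccne2 and from 0.19 to 0.11 for Cdc25a. Ccne1 alone of the members went the other way, from 0.20 to 0.23. With the replicate block, 6 members (Ccne2 at an adjusted p of 0.0341 and Cdc25a at 0.0198 in addition, edgeR), 53 list genes and 1652 genes passed. Ccne1 and Ccne2, at under 200 reads a library, carry the most counting error.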

Other observations

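Itga2b, the integrin of megakaryocytes and their progenitors, followed Cdk6 inside Mitol KO but not between the groups. It was at 286, 351, 1111 and 1440 normalized counts in Mitol KO libraries 1 to 4 and at 560, 519, 570 and 589 in Control libraries 1 to 4, so that libraries 1 and 2 lay below the Control range and libraries 3 and 4 above it. The log2 fold change was 0.49 (edgeR adjusted p = 0.476). The megakaryocyte list, 5 of its 6 genes being in the table, summed to 2381 to 5085 normalized counts in Mitol KO and 3143 to 4827 in Control, mostly from Vwf and Itga2b. Pf4, a platelet chemokine, was the 1 gene of that list that passed, and it fell: it was at most at 17.2 normalized counts in Mitol KO and at 26.4 to 62.0 in Control, with no overlap (log2 fold change -1.69, edgeR adjusted p = 0.0202). Its Mitol KO values were lowest in libraries 3 and 4, where Itga2b was highest.

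Counting error alone would give Cdk6 an SD of 117 normalized counts in Mitol KO, where the libraries had an SD of 4583, and Ccnd2 an SD of 67.2, where the libraries had 1105. For Ccne1 the same figures were 11.4 and 20.8 in Mitol KO.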
